A study of Mus musculus with 6 samples.

Results

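The genes described here are the amino acid transporter families of the solute carrier superfamily, chosen by symbol alone: every non-control probe whose gene name on the array began with Slc1a, Slc3a, Slc6a, Slc7a, Slc36a, Slc38a or Slc43a followed by a digit. The rule took 108 of the 41174 probes, which stand for 62 genes. Of these, 39 genes could be tested, among 19225 tested in all. One of them, Slc7a6os, is named for lying opposite Slc7a6 and is not itself a transporter, and it is kept because the rule takes it.

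Resting CD4 T cells from spleens of C57BL/6J mice were compared with and without vasoactive intestinal peptide (VIP), a neuropeptide that signals through receptors coupled to cyclic AMP. Each of 6 two-colour arrays carried RNA of 1 VIP-treated and 1 untreated sample, numbered as biological replicates 1 to 6, with VIP in the Cy5 channel on replicates 1, 3 and 5 and in the Cy3 channel on replicates 2, 4 and 6. Both groups came from male and female mice of 6 to 32 weeks, for which no genetic change is named, with the spleens of 5 to 10 animals pooled for each sample and CD4 cells drawn out with antibody-coated magnetic beads. The labels state neither the dose nor the duration of VIP. The series asked for the early transcriptional response of resting cells to VIP.

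T cells take up amino acids through carriers of several families. The heavy chain encoded by Slc3a2 (the surface antigen CD98) pairs by a disulfide bond with a light chain of the SLC7 family, above all Slc7a5, to exchange large neutral amino acids such as leucine. Other SLC7 members carry cationic amino acids on their own, SLC38 members bring in glutamine and small neutral amino acids with sodium, and SLC36 and some SLC38 members sit on lysosomes, where amino acids are sensed by the mTORC1 kinase complex. Resting T cells are known to keep this uptake low, and activation through the T cell receptor is known to raise Slc7a5 and Slc3a2 strongly.

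The median signal of an array was 83.6 to 108 in Cy3 and 148 to 235 in Cy5, and 59.1% to 79.0% of probes were well above background in a channel. All 9 T cell markers looked at, among them Cd3e, Cd4 and Lck, were above background in all 12 channels, and 1 of them, Thy1, was called lower with VIP (log2 ratio -0.29). Of the markers of other cells, 2 of 2 for CD8 T cells, 5 of 6 for B cells, 2 of 3 for plasma cells, 7 of 7 for macrophages, 3 of 4 each for neutrophils, dendritic cells and erythroid cells, and 1 of 4 each for NK cells and platelets were also above background in all 12 channels, and none was called. The summed intensity of 5 B cell markers was 7644 to 15323 in VIP channels and 8511 to 16154 in untreated channels, and that of 5 macrophage markers 2808 to 5691 in VIP channels and 2430 to 5148 in untreated channels. That of 2 erythroid markers was 2087 to 19069 in VIP channels and 2445 to 18636 in untreated channels. Sex-linked transcripts differed between the 2 samples of replicate 3 (log2 ratio of Xist -6.12) and of replicate 6 (2.03), so results are also given without those arrays. With bulk RNA, fewer cells of a type and less RNA per cell cannot be told apart. The arrays with VIP in Cy5 all lay at one position of their slide and those with VIP in Cy3 all at another, so dye and position cannot be told apart.

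Few of the transporter transcripts were called as changed by VIP, and in the fit reported here no fitted ratio was large. A transcript that was not called was not thereby shown to be unchanged. One member was called higher, the glutamine transporter gene Slc38a3, and 1 was called lower, the lysosomal arginine sensor gene Slc38a9, at an adjusted p under 0.05. Over all genes tested, 1.72% were called higher and 1.37% lower, 3.08% in either direction, and 2 of 39 members is 5.13%. At an unadjusted p under 0.05 there were 9 members, 5 higher and 4 lower (23.1% of the 39), against 16.7% of all genes. The median log2 ratio of VIP over untreated was 0.0084 over the 39 members and -0.0047 over all genes, and the median size of the ratio, whatever its sign, was 0.06 for members and 0.05 for all genes. Fitted ratios were positive for 21 members and negative for 18. The fitted folds ran between 0.883 and 1.17, and the 95% intervals of all 39 members lay between 0.816-fold and 1.26-fold. These bounds hold for the processing used here. With the scanner software's processed signals Slc38a3 had a log2 ratio of 0.47, above the highest bound (0.33 on the log2 scale). Expressed as normalised intensity, the VIP and untreated ranges overlapped for all 39, so the calls rest on the ratio within each array.

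**Figure D1:**
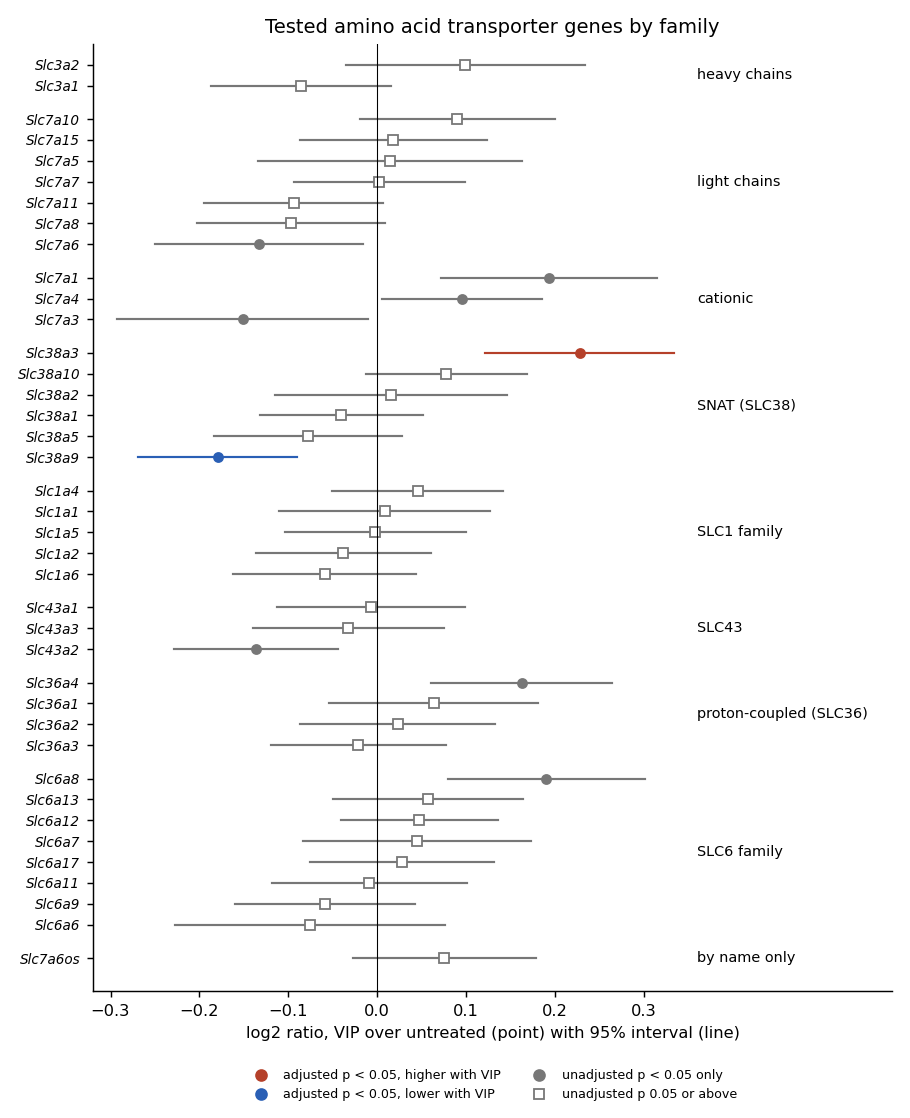
Fitted log2 ratio of VIP over untreated (points) with its 95% interval (lines) for the 39 tested genes, grouped by family and sorted within it. The interval of 30 of the 39 genes holds 0, and the 2 called genes are both of the SNAT (SLC38) family, Slc38a3 at 0.23 and Slc38a9 at -0.18.

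Slc38a3 encodes a sodium-coupled carrier of glutamine, histidine and asparagine that exchanges protons and is best known from liver, kidney and brain. It rose by 1.17-fold. Its single probe lies on the minus strand of chromosome 9 at chr9:107553825-107553884 (mm9, as the array files give it, with no exon annotation of that build used here), and is shown because the only increase among the transporters rests on it:
Slc38a3 probe: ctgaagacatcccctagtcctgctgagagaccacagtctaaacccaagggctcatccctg
The log2 ratio of VIP over untreated was 0.36, -0.01, 0.26, 0.08, 0.39 and 0.29 on replicates 1 to 6. The transcript was thus higher with VIP on 5 of 6 arrays and level on replicate 2, and on each slide the array with VIP in Cy5 gave the larger ratio. Normalised log2 intensity had a lowest, median and highest value of 6.76, 7.33 and 7.67 in VIP channels and of 6.68, 7.06 and 7.41 in untreated channels, ranges that overlap widely. The fitted log2 ratio was 0.23 ± 0.05 (SE, n = 6 arrays; limma, adjusted p = 0.0306). Averaged within the 3 slides, each of which holds both dye orientations, it was 0.18, 0.17 and 0.34. Without the arrays that differ in sex-linked transcripts it was 0.20 and no longer called (limma, adjusted p = 0.0842). With the scanner software's processed signals the log2 ratio was 0.47, also not called (adjusted p = 0.0671). The gene was above background in all 12 channels.

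Slc38a9 encodes a lysosomal membrane protein that senses arginine, carries amino acids out of the lysosome and signals to mTORC1 through the Rag GTPases. On the probe that stands for it, it fell by 0.18 on the log2 scale (1.13-fold lower with VIP). The gene has 3 usable probes that gave different ratios, so all are shown, with the probe that carries the call first. Each lies on the plus strand of chromosome 13 (mm9), the first at chr13:113523042-113523101, the second at chr13:113521855-113521914 and the third at chr13:113498076-113498135.
Slc38a9 probe 1: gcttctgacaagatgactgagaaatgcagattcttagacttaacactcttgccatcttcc
Slc38a9 probe 2: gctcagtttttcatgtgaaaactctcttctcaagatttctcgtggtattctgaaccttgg
Slc38a9 probe 3: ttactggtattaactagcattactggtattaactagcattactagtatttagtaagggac
Probes 1 and 2 were designed on the same transcript record, and probe 3 on a separate cDNA record. Probe 3 holds a stretch of 24 bases that occurs again within the probe, against at most 5 bases in the other pair. Probe 1 gave log2 ratios of -0.18, -0.07, -0.20, -0.19, -0.22 and -0.22 on replicates 1 to 6. It was lower with VIP on all 6 arrays, by nearly the same amount on 5 of them, and within the 3 slides the ratio was -0.12, -0.19 and -0.22. Its normalised log2 intensity was 10.002, 10.321 and 10.401 (lowest, median, highest) in VIP channels and 10.223, 10.499 and 10.578 in untreated channels, so the groups overlap although every array's VIP value lies under its untreated partner. The fitted log2 ratio was -0.18 ± 0.04 (SE, n = 6; limma, adjusted p = 0.0417), and with slides as a fixed block the call was lost (adjusted p = 0.0562). Probe 2 gave -0.03 ± 0.04 (adjusted p = 0.840, each probe tested on its own) and probe 3 -0.06 ± 0.08 (adjusted p = 0.780). On replicates 1 to 6 probe 2 gave ratios of 5.7e-05, 0.10, -0.04, 0.02, -0.19 and -0.06, on both sides of 0. With the kept probes of a gene averaged, the ratio of Slc38a9 was -0.09 and not called (adjusted p = 0.359). Without the arrays that differ in sex-linked transcripts probe 1 gave -0.16, not called (adjusted p = 0.171).

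**Figure D2:**
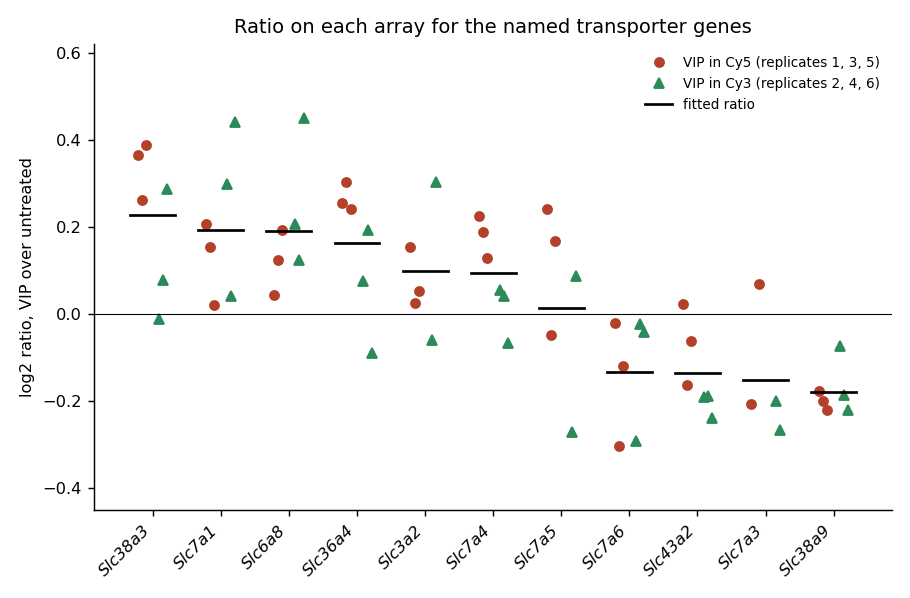
Log2 ratio of VIP over untreated on each array (points, by dye orientation) and the fitted ratio (black bars) for the 2 called genes, the 7 others with an unadjusted p under 0.05, and Slc7a5 and Slc3a2. All points of Slc38a9 and Slc7a6 lie below 0 and all of Slc7a1 and Slc6a8 above it, while the points of Slc7a5 fall on both sides, between -0.27 and 0.24.

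Of the SLC38 genes on the array, 6 of 10 were tested, Slc38a3 and Slc38a9 included, with a median log2 ratio of -0.01. Slc38a10 had the highest value after Slc38a3, 0.08 ± 0.04 (SE; adjusted p = 0.385), and its second probe gave 0.09. Slc38a1 and Slc38a2, sodium-coupled carriers of glutamine and small neutral amino acids, had fitted log2 ratios of -0.04 ± 0.04 (adjusted p = 0.702) and 0.02 ± 0.06 (4 arrays; adjusted p = 0.931). Their probes differ in sign. The other 4 probes of Slc38a1 gave 0.06 to 0.12, of which 1 (0.12, on the same cDNA record as 2 of the others) had an unadjusted p of 0.0192 and was higher with VIP on 6 of 6 arrays, and the other 3 of Slc38a2 gave -0.04 to 0.07. Slc38a5, a carrier of glutamine, serine and asparagine, was at -0.08 ± 0.05 (adjusted p = 0.465) and was above background on only 3 VIP and 1 untreated arrays. Each time this was in the Cy5 channel: VIP on replicates 1, 3 and 5, and untreated on replicate 2 but not on replicates 4 and 6. Each treatment was in Cy5 on 3 arrays, and the unequal counts were not tested.

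Slc3a2, the CD98 heavy chain, was not called. Its brightest probe gave log2 ratios of 0.15, -0.06, 0.02, 0.30 and 0.05 on replicates 1 to 5, and on replicate 6 its spot was an outlier and was left out. It was higher with VIP on 4 of 5 arrays. The fitted log2 ratio was 0.10 ± 0.06 (SE, n = 5; adjusted p = 0.461), and the 95% interval ran from -0.04 to 0.23. Without replicate 4, the array with the highest value, the fitted ratio was 0.01. Without replicate 2, the array with the lowest value, it was 0.19 (limma, adjusted p = 0.155). The gene was called in none of the 17 alternatives. The second Slc3a2 probe gave 0.15 ± 0.06 (n = 6; adjusted p = 0.223), higher on 5 of 6 arrays. Its usual partner Slc7a5, the light chain for leucine and other large neutral amino acids, gave 0.24, -0.05, -0.27, 0.17 and 0.09 on replicates 1, 3, 4, 5 and 6. Those values fall on both sides of 0, and the fitted log2 ratio was 0.01 ± 0.07 (SE, n = 5; adjusted p = 0.946), with a 95% interval from -0.13 to 0.16. Its sign turned without replicate 1 (-0.02) and without replicate 6 (-0.08). Both genes were above background in all 12 channels. Normalised log2 intensity of Slc7a5 was 10.97, 11.58 and 11.83 (lowest, median, highest) in VIP channels and 11.01, 11.49 and 12.10 in untreated channels, and that of Slc3a2 was 14.38, 14.64 and 15.21 in VIP channels and 14.34, 14.46 and 15.19 in untreated channels. In both genes the spread between replicates exceeded the difference between VIP and untreated, as it also did in the called Slc38a3 and Slc38a9. The probes, each on the minus strand in mm9, are shown because these 2 genes mark the uptake system that T cell activation is known to raise; Slc7a5 lies at chr8:124405142-124405201, the brighter Slc3a2 probe at chr19:8782189-8782248 and the other at chr19:8788183-8788242.
Slc7a5 probe: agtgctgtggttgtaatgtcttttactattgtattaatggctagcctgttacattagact
Slc3a2 probe 1: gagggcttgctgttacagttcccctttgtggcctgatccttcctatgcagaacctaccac
Slc3a2 probe 2: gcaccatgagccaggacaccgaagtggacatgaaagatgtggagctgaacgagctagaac

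**Figure D3:**
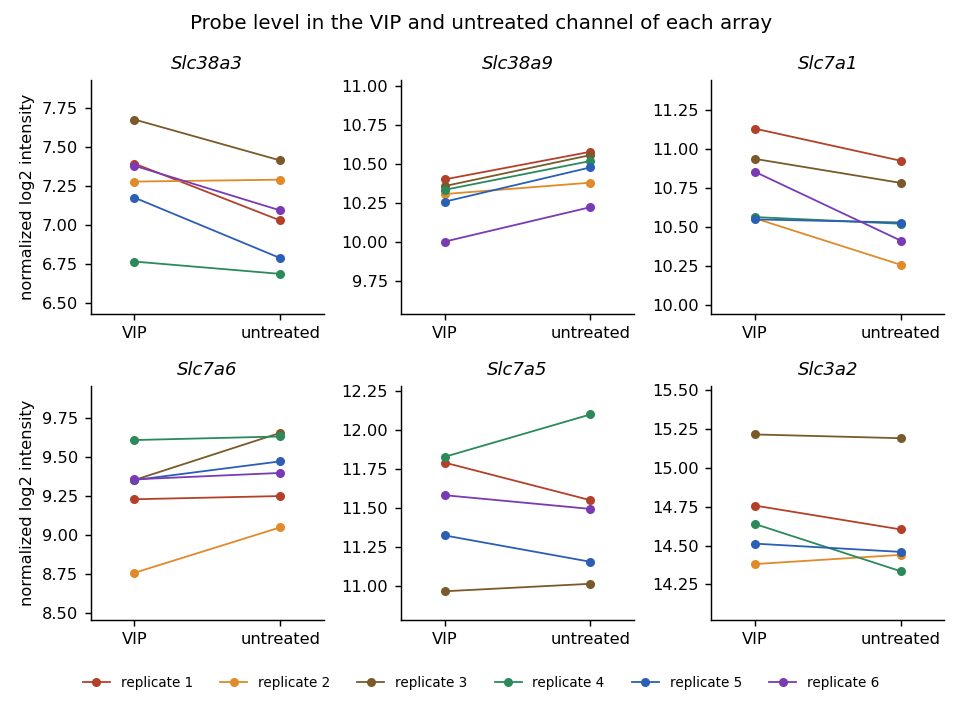
Normalised log2 intensity of the probe that stands for each of 6 genes in the VIP channel and in the untreated channel of each array, joined by a line for each replicate (every panel spans the same height). On all 6 arrays the VIP point of Slc38a9 lies under the untreated point, whereas lines of Slc7a5 and Slc3a2 slope both ways. In every panel the replicates spread further apart than the 2 ends of a line.

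Of the light chains that pair with a heavy chain, 7 of 10 were tested and none was called. Slc7a6, which with Slc3a2 exchanges cationic for neutral amino acids, was at the low end. Its log2 ratio was -0.02, -0.29, -0.30, -0.02, -0.12 and -0.04 on replicates 1 to 6. All 6 arrays had it lower with VIP, replicates 2 and 3 well below the others. The fitted value was -0.13 ± 0.05 (SE; adjusted p = 0.234). The second probe of Slc7a6 gave -0.18 ± 0.04, also lower on 6 of 6 arrays (adjusted p = 0.0576, each probe tested on its own). Slc7a10, an exchanger of alanine, serine and cysteine, stood at the high end with 0.09 ± 0.05 (adjusted p = 0.407). Slc7a11, the cystine and glutamate exchanger, was at -0.09 ± 0.05 (adjusted p = 0.341), and all 4 of its probes were negative. Slc7a8, another light chain for neutral amino acids, was at -0.10 ± 0.05 (adjusted p = 0.354), while Slc7a7 was at 0.0025 ± 0.0434 and Slc7a15 at 0.02 ± 0.05. Slc3a1, the other heavy chain, which pairs with Slc7a9 in kidney and gut, was at -0.09 ± 0.05 (adjusted p = 0.397). The Slc7a6os gene opposite Slc7a6 was at 0.08 ± 0.05 (adjusted p = 0.467).

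The cationic amino acid transporters of the SLC7 family carry arginine, lysine and ornithine without a heavy chain. On the array there were 5, and all 3 that were tested had an unadjusted p under 0.05, in different directions, with none called. Slc7a1, the widely expressed arginine carrier, gave log2 ratios of 0.21, 0.30, 0.15, 0.04, 0.02 and 0.44 on replicates 1 to 6. VIP was higher on all 6, though by little on replicates 4 and 5. With the fitted dye effect removed, the ratio of Slc7a1 on replicate 4 was -0.02. Its normalised log2 intensity was 10.55, 10.71 and 11.13 (lowest, median, highest) in VIP channels and 10.26, 10.53 and 10.93 in untreated channels. The fitted log2 ratio was 0.19 ± 0.05 (SE, n = 6; adjusted p = 0.0956), and without replicate 4 it was 0.25 and called (adjusted p = 0.0337). That was the only call of Slc7a1 among 17 alternatives. Without the arrays that differ in sex-linked transcripts its ratio was 0.14 (limma, adjusted p = 0.357). The other Slc7a1 probe was measured on 3 arrays and gave 0.12, -0.26 and 0.02, so it was not tested. Slc7a3, the related carrier best known from brain, had 4 usable arrays with ratios of -0.21, -0.20, 0.07 and -0.27. It was lower with VIP on 3 of these 4, with a fitted log2 ratio of -0.15 ± 0.06 (adjusted p = 0.265). Slc7a4, a family member with no established transport activity, was at 0.10 ± 0.04 (adjusted p = 0.268) and was above background on 5 VIP and 4 untreated arrays. For Slc7a1 the files place 34 of the 60 bases on the minus strand at chr5:149138970-149139003 (mm9). Its probe is shown with the pair for Slc7a6, on the plus strand at chr8:108721147-108721206 and chr8:108722470-108722529. They are examples of transporters whose measured ratio pointed one way on every array without being called.
Slc7a1 probe: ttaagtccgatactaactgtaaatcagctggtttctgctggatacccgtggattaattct
Slc7a6 probe 1: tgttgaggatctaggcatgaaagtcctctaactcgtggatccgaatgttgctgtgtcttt
Slc7a6 probe 2: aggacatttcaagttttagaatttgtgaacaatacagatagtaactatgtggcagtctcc

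The SLC1 family holds the neutral amino acid exchangers Slc1a4 and Slc1a5 and the glutamate carriers. Of its 7 genes 5 were tested, none at an unadjusted p under 0.05 on the probe that stands for the gene. Slc1a5, the glutamine exchanger that activated T cells rely on, was at -0.0018 ± 0.0460 (SE; adjusted p = 0.990), higher with VIP on 3 arrays and lower on the other 3. Its normalised log2 intensity was 13.24, 13.85 and 13.96 (lowest, median, highest) in VIP channels and 13.20, 13.80 and 13.94 in untreated channels, nearly the same range. Slc1a4 was the highest at 0.05 ± 0.04 (adjusted p = 0.672). The second Slc1a4 probe gave 0.14 ± 0.04 (limma, unadjusted p = 0.00889, adjusted p = 0.133, each probe tested on its own). The lowest was Slc1a6, a glutamate carrier known from the cerebellum, at -0.06 ± 0.05. Slc1a1 was at 0.0084 ± 0.0527 and Slc1a2 at -0.04 ± 0.04, and each was above background on 3 VIP arrays and 1 untreated array.

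All 3 SLC43 genes had negative ratios. Slc43a2, a facilitated carrier of branched-chain and aromatic amino acids, gave log2 ratios of 0.02, -0.19, -0.16, -0.19, -0.06 and -0.24 on replicates 1 to 6, lower with VIP on 5 of them. The fitted value was -0.14 ± 0.04 (SE; adjusted p = 0.119), and its second probe gave -0.17 ± 0.06 (adjusted p = 0.171). Slc43a1, the related carrier of branched-chain amino acids, was at -0.01 and Slc43a3, now known as a purine carrier, at -0.03.

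The 4 proton-coupled transporters of the SLC36 family were tested and none was called. Slc36a4, a carrier of proline and tryptophan, gave log2 ratios of 0.25, 0.08, 0.30, 0.19, 0.24 and -0.09 on replicates 1 to 6. It was higher with VIP on all arrays but replicate 6. The fitted log2 ratio was 0.16 ± 0.05 (SE; adjusted p = 0.0941), and the neighbouring probe gave 0.17 ± 0.04, higher on 6 of 6 arrays (adjusted p = 0.0703). With the kept probes of a gene averaged, Slc36a4 passed the threshold (adjusted p = 0.0473), its only call among 17 alternatives. Without the arrays that differ in sex-linked transcripts its ratio was 0.19 (limma, adjusted p = 0.108). Slc36a1, the lysosomal carrier of small neutral amino acids, was at 0.06 ± 0.05 (adjusted p = 0.616), Slc36a2 was at 0.02 and Slc36a3 was the lowest at -0.02. Slc36a2 and Slc36a3 were each above background on only 3 VIP arrays, and on 1 and 2 untreated arrays.

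The SLC6 family, carriers of neurotransmitters, amino acids and osmolytes driven by sodium and chloride, was the least detected, with 8 of 20 genes tested. Slc6a8, the creatine carrier on the X chromosome, gave log2 ratios of 0.04, 0.21, 0.12, 0.12, 0.19 and 0.45 on replicates 1 to 6. All 6 arrays had it higher with VIP, most on replicate 6. Normalised log2 intensity was 7.94, 8.05 and 8.16 (lowest, median, highest) in VIP channels and 7.59, 7.89 and 8.03 in untreated channels. The fitted log2 ratio was 0.19 ± 0.05 (SE; adjusted p = 0.0724), and it was 0.14 without the 2 arrays that differ in sex-linked transcripts (adjusted p = 0.263). The lowest was Slc6a6, the taurine carrier, at -0.08 ± 0.07 (adjusted p = 0.652), whose ratios were negative on all 3 arrays with VIP in Cy5 (lowest -0.57) and positive on all 3 with VIP in Cy3 (highest 0.59). Slc6a9, the glycine carrier, was at -0.06 ± 0.05 (adjusted p = 0.587). The other 5, Slc6a7 (0.05), Slc6a11 (-0.01), Slc6a12 (0.05), Slc6a13 (0.06) and Slc6a17 (0.03), had no unadjusted p under 0.05. Slc6a12 was above background on only 3 VIP arrays and 1 untreated array.

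The other 23 members were not tested. Of these, 5 were well above background on no array, among them Slc6a2 and Slc6a5, the noradrenaline and glycine carriers of neurons. Another 10, Slc1a3, Slc6a3, Slc6a4, Slc6a18, Slc6a19, Slc6a20b, Slc7a2, Slc7a13, Slc7a14 and Slc38a8, were above it on fewer than 3 arrays of either treatment. The remaining 8, Slc1a7, Slc6a14, Slc6a16, Slc7a9, Slc7a12, Slc38a4, Slc38a7 and Slc38a11, were bright enough but lost too many spots as outliers. With outlier spots kept, those 8 could be tested and none was called. Among them the lysosomal glutamine carrier gene Slc38a7 had a log2 ratio of -0.14 (unadjusted p = 0.0208, adjusted p = 0.231). Of the 39 tested genes, 26 were above background in all 12 channels.

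Several probes of 1 gene allowed a check within genes. Of 14 genes with more than 1 usable probe, 10 had probes of one sign and 4 had probes of both signs (Slc6a13, Slc36a1, Slc38a1 and Slc38a2). Slc38a9 counts among the 10, although its probes gave -0.18, -0.03 and -0.06, so a shared sign does not mean a shared size. Tested one by one, 15 of the 61 usable probes had an unadjusted p under 0.05, and only the Slc38a3 probe and probe 1 of Slc38a9 had an adjusted p under 0.05. The matching shares over all genes with several probes and over all probes were not worked out, so these counts are descriptive.

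Genes that work with these transporters were set beside them. Of 32 tested genes that link amino acids to mTORC1, 3 rose with VIP and none fell: Rptor, the scaffold of the complex (log2 ratio 0.28 ± 0.04, adjusted p = 0.00633), Castor1, the arginine sensor of the cytosol (0.29 ± 0.05, adjusted p = 0.00773), and Sesn3, a sestrin that restrains the complex (0.21 ± 0.05, adjusted p = 0.0433). Slc38a9, which also signals to mTORC1 and was called lower on its probe 1 (-0.18), was counted with the transporters and not in this list. Among 20 aminoacyl-tRNA synthetases, which charge tRNAs with amino acids, Aars (0.21 ± 0.05, adjusted p = 0.0357) and Cars (0.25 ± 0.06, adjusted p = 0.0387) rose, and 6 in all were higher and 2 lower at an unadjusted p under 0.05. At that threshold 1442 of all 19225 genes were higher and 1770 lower. Of 24 genes of the amino acid response, the programme run by the transcription factor ATF4 under amino acid shortage, Psat1 of serine synthesis rose (0.33 ± 0.05, adjusted p = 0.00541), 18 ratios were positive and the median was 0.05. Over all genes tested, 47.1% of ratios were positive. Of 26 genes of amino acid metabolism, Gls2, a mitochondrial glutaminase, rose by 0.44 ± 0.06 (adjusted p = 0.00255). None of 15 amino acid and peptide carriers of other families and none of 14 regulators and partners of the transporters, such as Myc and Nedd4l, was called by limma, with 1 and 3 of them at an unadjusted p under 0.05. These counts stand beside the 1.72% of all genes called higher, and no test of the lists was made. The lists were chosen with earlier results of these data known, so the direction of their called genes is not independent evidence.

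**Figure D4:**
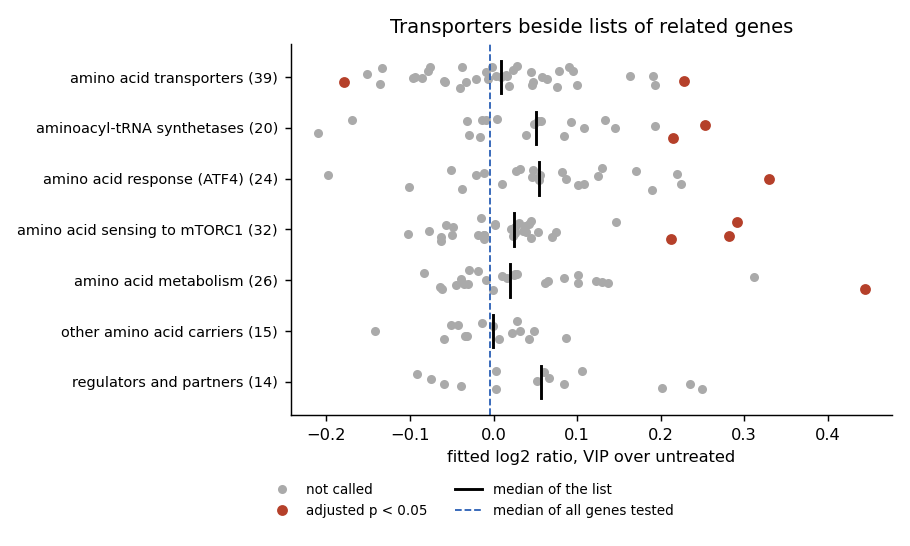
Fitted log2 ratio of VIP over untreated for each tested gene of the transporter families and of 6 related lists (grey, or red at an adjusted p under 0.05), with each list's median (black bar), the median of all genes (dashed line) and the number of tested genes in brackets. The transporters spread from -0.18 to 0.23 around a median of 0.0084, and the called genes of the other lists, from 0.21 to 0.44, all lie on the positive side. The lists were chosen with earlier results of these data known.

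Start-site sequences were searched for the DNA elements of the relevant pathways, on both strands, in RefSeq windows of 250 bases before to 50 bases after a transcription start (GRCm38.p6). Of the 62 members 44 had such a window. The full cyclic AMP response element, TGACGTCA, was in 2.03% of all 27025 genes with a window and in no member. Its half-site TGACG, which is part of the full element, was in 23.0% of all genes and in 15 of the 44 members (34.1%), among them Slc7a1, Slc7a6, Slc38a2 and Slc38a10. Slc38a9 had none, and no window was at hand for Slc38a3. The amino acid response element, TGATGNAA with N any base, was in 4.51% of all genes and in 3 members (6.82%), Slc1a4, Slc7a7 and Slc7a11. The Slc7a11 window is shown because it holds the element in both orientations, capitalised, 66 to 59 and 47 to 40 bases before the start site, and because the gene's probes gave no call (chr3:50443564-50443863, minus strand, GRCm38.p6).
Slc7a11 start-site window: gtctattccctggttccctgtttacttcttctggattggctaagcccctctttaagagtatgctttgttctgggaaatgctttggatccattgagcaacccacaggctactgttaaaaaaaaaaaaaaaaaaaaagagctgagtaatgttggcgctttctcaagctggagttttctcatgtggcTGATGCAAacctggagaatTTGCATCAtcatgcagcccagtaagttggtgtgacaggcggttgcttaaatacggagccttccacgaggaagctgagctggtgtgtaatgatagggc
These matches are letters in a window and not measured binding sites.

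**Figure D5:**
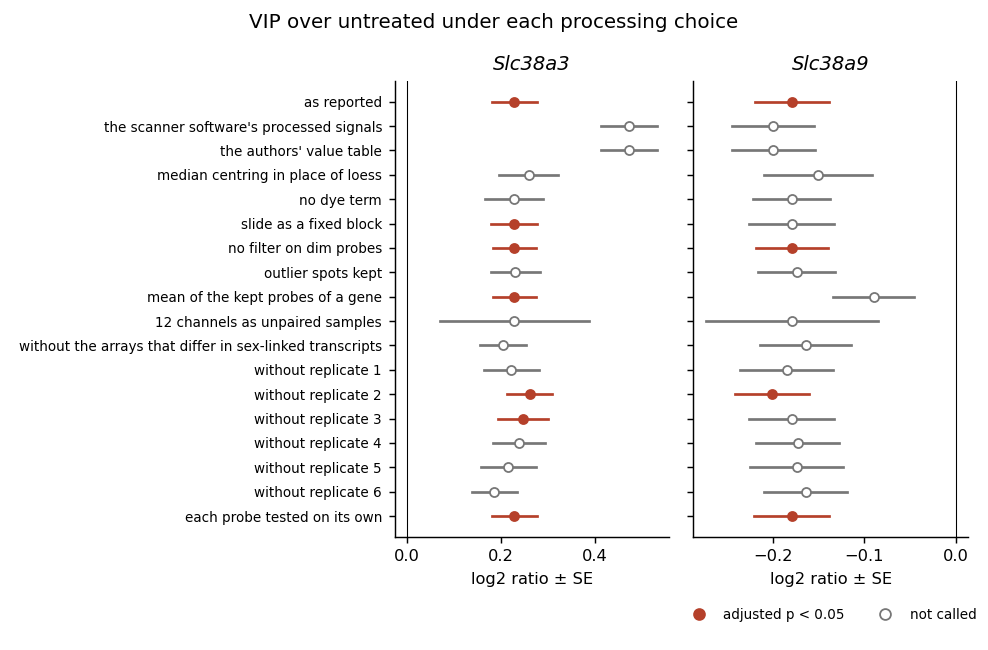
Log2 ratio of VIP over untreated with its SE for Slc38a3 and Slc38a9 as reported (top) and under 17 other processing choices. Slc38a3 stays above 0 and Slc38a9 below 0 under all 17, while the adjusted p stays under 0.05 (red) in 6 of them for Slc38a3 and in 3 for Slc38a9. Several choices, such as leaving out the dye term or adding slides as blocks, leave the ratio itself unchanged and so could not alter the direction.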

How the data were processed

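The deposited scanner tables, written by Feature Extraction 9.5.1.1, give each spot's intensity, a log10 ratio of Cy5 over Cy3 and the probe's mm9 position, per the file headers. A further table by the authors, with 1 value for each spot, matched that log10 ratio with the sign turned on replicates 2, 4 and 6 (largest difference 4.77e-06). Its array medians are 0, and it was used as an alternative. Mean signals were corrected with normexp (offset 50) against the local median background and normalised by loess within arrays. Control spots, 1639 of 45018, and outlier spots, 1.93% to 8.96% of an array, were left out, and spots of a probe were averaged. The fit used the log2 ratio computed from the deposited intensities.

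A probe was kept if well above background on at least 3 arrays in the channel of either treatment and usable on 2 or more arrays with VIP in either dye (27454 probes, 61 of the members' 108). The brightest kept probe stood for a gene. Names were updated through RefSeq accessions for 24844 probes (60.3%), and no member's name changed. The log2 ratios of VIP over untreated were fitted with limma 3.58.1 in R 4.3.3, with a dye term, and 2-sided p-values were adjusted by Benjamini-Hochberg over all 19225 genes, of which 593 passed 0.05 (330 higher, 263 lower). Levels in a channel are loess values scaled between arrays by A-quantile, given within a probe only. The script was tested on simulated data. Precision is limited by the 6 arrays, and by signal over background for dim probes. Replicates are biological by their labels, and a p-value covers the spread between these pools.

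Members and gene lists were chosen with earlier results of these data known. Named genes are the called members, the others with an unadjusted p under 0.05, Slc7a5 and Slc3a2, the lowest and highest of each family, and up to 4 called genes of each other list. The other tested members were named after their values were seen. Alternatives were other signals and scalings, the dye term, slides as blocks, the filters, the choice of probe, unpaired channels and arrays left out.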

Additional observations from a re-analysis of the deposited data

How the results depend on the processing

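Slc38a3 kept its direction in all 17 alternatives (log2 ratio 0.19 to 0.47) and was called in 6, and Slc38a9 in all 17 (-0.20 to -0.09) and was called in 3. Several of these could not change the direction, because the same probe and arrays gave the same ratio in both genes. These were no dye term, slides as a fixed block, no filter on dim probes, unpaired channels and each probe tested on its own. The scanner software's processed signals and the authors' value table gave the same ratios as each other (0.47 and -0.20). In all, 593 genes were called. The count was 38 with the scanner software's processed signals, 41 with the authors' value table, 308 with median centring in place of loess, 124 without the dye term, 5 with the 12 channels as unpaired samples, 369 without the 2 arrays that differ in sex-linked transcripts, and 254 to 498 with 1 replicate left out. In the first 6 of these settings, and with outlier spots kept, 0 members were called higher and 0 lower. With the kept probes of a gene averaged, 2 were higher (Slc38a3 and Slc36a4) and 0 lower, and with slides as fixed blocks 1 was higher (Slc38a3) and 0 lower. Leaving out 1 replicate gave 0 to 1 members higher and 0 to 1 lower: Slc38a3 was called without replicate 2 or 3 (adjusted p 0.0329 to 0.127 over the 6), Slc38a9 without replicate 2 (0.0454 to 0.155), and Slc7a1 without replicate 4. The cause of these moves was not tested, except that fewer arrays enter where some are left out. Slc7a5 had the opposite sign with outlier spots kept (-0.0088), without the arrays that differ in sex-linked transcripts (-0.034), and without replicate 1 (-0.016) or 6 (-0.076), with a range of -0.076 to 0.10 when 1 replicate was left out. VIP and untreated samples of a replicate share an array, so each ratio is already paired by array. On replicates 3 and 6 the 2 samples differed in sex-linked transcripts, so there the pairing does not remove differences between the pools of mice. Slides, each with both dye orientations, entered as the fixed block above (733 genes called, Slc38a9 adjusted p = 0.0562). Dim probes limit what can be said of the 10 and 5 members left untested for signal and of 13 tested members not above background in at least 1 channel, and outlier spots limit the other 8 untested members.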
